A study of Mus musculus with 15 samples.

Results

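Bmp4, which encodes the secreted ligand bone morphogenetic protein 4, and the Id genes Id1, Id2 and Id3 were followed through serum stimulation of mouse embryonic stem (ES) cells. All probe sets that the array annotation gives to these 4 genes were taken, out of 8221 genes named by at least 1 probe set. Bmp4 was read by 2 probe sets (93455_s_at and 93456_r_at), Id1 by 100050_at, Id2 by 93013_at and Id3 by 92614_at, so 5 probe sets stood for the 4 genes. All 5 passed the filter on low values and were tested with the other probe sets, 9558 in all. In the array maker's naming, the ending _s_at marks a set whose probes may match more than 1 transcript, and _r_at a set for which some probe selection rules were dropped.

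The 15 arrays (Affymetrix MGU74A, total RNA) covered 3 ES cell lines at 0, 10, 30, 60 and 180 min of stimulation by fetal bovine serum, and every combination was hybridised once. The lines were wild-type E14 (E14wt), Srf-null E100-/- and its rescue E100-/- rescue. Srf encodes serum response factor, a DNA-binding protein that switches on many genes when cells meet serum. How Srf was restored in the rescue line, whether a line is 1 clone, how cells were kept before serum, and whether leukaemia inhibitory factor (LIF) or feeder cells were present are not stated. No label names a second culture of any line, so the times of a line, or the lines at a time, stood for replicates, and p-values measure only the spread between these arrays.

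Bone morphogenetic proteins bind paired serine/threonine kinase receptors, which phosphorylate Smad1, Smad5 and Smad9, and these enter the nucleus with Smad4. Id1, Id2 and Id3 are among the most direct targets of this route. Id proteins carry a helix-loop-helix domain without the basic stretch that binds DNA, so they capture E proteins and keep them from their sites. In mouse ES cells, BMP4 acting through Id proteins is known to work with LIF and Stat3 to hold back differentiation, and serum is known to carry BMP activity of its own.

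The sequences just before the gene starts are shown because Id2 and Id3 rose together in serum, as given below, while Bmp4 had no called change. They are the 250 bases before each start in RefSeq (build GRCm38.p6), 5′ to 3′ on the gene's strand, for the 3 genes that were matched by symbol: Bmp4 on the minus strand at chr14:46390670-46390919, Id2 on the minus strand at chr12:25096093-25096342 and Id3 on the plus strand at chr4:136143572-136143821. Id1, which also rose in serum, is not shown because no window was matched for it. Capitals mark GGCGCC (a GC-rich palindrome of the kind found in BMP-responsive Id enhancers), CCAAT (also as its reverse complement ATTGG) and TATAA.
Bmp4: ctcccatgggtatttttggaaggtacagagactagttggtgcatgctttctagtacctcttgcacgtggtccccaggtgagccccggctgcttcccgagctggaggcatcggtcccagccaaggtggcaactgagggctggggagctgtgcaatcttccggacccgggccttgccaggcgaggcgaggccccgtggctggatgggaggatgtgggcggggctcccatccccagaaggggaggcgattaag
Id2: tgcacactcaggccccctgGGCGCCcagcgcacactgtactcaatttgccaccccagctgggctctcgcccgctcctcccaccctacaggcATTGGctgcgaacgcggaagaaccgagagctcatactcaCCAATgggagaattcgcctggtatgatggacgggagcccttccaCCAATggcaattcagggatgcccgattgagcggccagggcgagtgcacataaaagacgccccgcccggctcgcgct
Id3: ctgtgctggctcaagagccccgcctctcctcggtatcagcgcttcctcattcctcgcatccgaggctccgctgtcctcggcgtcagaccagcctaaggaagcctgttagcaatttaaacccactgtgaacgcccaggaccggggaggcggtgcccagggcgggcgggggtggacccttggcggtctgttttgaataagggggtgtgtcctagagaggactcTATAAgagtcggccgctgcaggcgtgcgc
Both strands were searched, and the capitalised motifs overlapped nowhere in these windows. The Id2 window held 1 GGCGCC and 3 CCAAT motifs, and the Id3 window held 1 TATAA motif. None of these letters occurred in the Bmp4 window. Of 32851 windows of this length, 9.59% held GGCGCC, 33.8% CCAAT and 22.8% TATAA. The short Smad-binding motif GTCT occurred 1 time in the Bmp4 window, 1 time in Id2 and 2 times in Id3, and 82.9% of all windows held it. The CArG box, the motif bound by serum response factor, had 0 matches in the 3 windows and occurred in 1.47% of all windows. A match is a description of the letters and not of a bound site.

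Values below are normalized intensities, which are the deposited intensities brought to a common distribution over the arrays. The deposited arrays differed in brightness, with trimmed means from 350 to 1439, and 24.9% to 41.6% of values on an array were 0 or negative. This share was 37.1% to 41.6% on Srf-null 30, 60 and 180 min and rescue 0 and 10 min, and at most 30.9% elsewhere. From 30 min on it thus differed between Srf-null and rescue arrays. Among the unstimulated samples, the wild-type and the rescue array stood apart from their lines. The fetal growth factor gene Igf2 was -1853 and -1829 there, against 2640 to 5223 on later wild-type and 5942 to 10240 on later rescue arrays. Srf-null cells were below 0 at every time. The beta-actin control gives a ratio of 3′ over 5′ signal that increases as RNA degrades. It was 7.53 and 4.22 on these 2 arrays, 2.94 and 3.83 for Srf-null cells at 0 and 60 min, and 0.847 to 2.11 elsewhere. By the same ratio for Gapdh, rescue 0 min (0.722) and Srf-null 60 min (0.785) lay within the 0.683 to 0.84 of most arrays. Higher Gapdh ratios came from wild-type 0 min (1.51), Srf-null 0 min (1.27) and wild-type 180 min (1.23). The ratios thus differed on rescue 0 min and Srf-null 60 min, and only the actin ratio was used as a term. The Srf-null 0 min array was the dimmest of all (trimmed mean 350). Its highest correlation with any other array was 0.856, the lowest such value, against 0.867 for wild-type and 0.939 for rescue 0 min. The array most like rescue 0 min was Srf-null 180 min and not a rescue array. Best matches in another line were also found for rescue 10 min (Srf-null 30 min), wild-type 30 min (Srf-null 10 min) and Srf-null 10 min (wild-type 30 min). Results are therefore given over 15 arrays and over the 12 arrays from 10 min on. Srf itself had no probe set in the annotation, which leaves the genotypes unchecked at the targeted gene. The serum-induced gene Egr1 stayed between 176 and 343 on the 5 Srf-null arrays and reached 17551 in wild-type and 13748 in rescue cells at 180 min. Junb, read beside it, was higher at 180 than at 10 min in every line. It went from 181 to 1963 in wild-type, 46 to 1028 in Srf-null (1602 at 0 min) and 588 to 2399 in rescue cells. Fos was low at both times, with 94 and 332 in wild-type, 231 and 111 in Srf-null and 63 and 207 in rescue cells. All 11 ES cell markers exceeded 84.98, the floor to which lower values were set, on 11 or more of the 15 arrays, with Pou5f1 at 12562 to 27191 and Sox2 at 18314 to 31894 on every array, while Foxa2 (endoderm), Mesp1 and Hand1 (mesoderm) were above it on 0 arrays. Other endoderm markers were above it at lower levels (Dab2 on 15 arrays, Ttr on 14, Gata4 on 13, Afp on 11, Gata6 on 10). Gata4 reached 1994 at its highest. Eomes (mesoderm) was above the floor on 14 arrays. Of the neural markers, Sox3 was above it on 15 arrays, Nes and Pax6 on 14, Tubb3 on 13 and Sox1 on 5. The 7 endoderm markers summed to 1279 to 2691 on wild-type, 1565 to 2655 on Srf-null and 1323 to 2685 on rescue arrays. The 5 neural markers summed to 1352 to 3039 on wild-type, 1750 to 5798 on Srf-null and 1945 to 5329 on rescue arrays. The median of Sox3 was 746 in wild-type, 607 in Srf-null and 2390 in rescue cells.

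Bmp4 was lowest in the rescue line and highest in Srf-null cells by both of its probe sets. With probe set 93455_s_at, wild-type cells gave 3840, 5323, 3706, 4185 and 2634 at 0, 10, 30, 60 and 180 min. Srf-null cells gave 4151, 5736, 8136, 6718 and 4685 at the same times. Rescue cells gave 2247, 3817, 3133, 2548 and 1790. Every rescue array lay below every Srf-null array, and wild-type cells lay between the other lines at each time, overlapping both ranges. The geometric means were 5715 in Srf-null, 3840 in wild-type and 2616 in rescue cells, with SDs over the 5 times of 0.39, 0.37 and 0.42 on the log2 scale.

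With probe set 93456_r_at, wild-type cells gave 3210, 3264, 5649, 3318 and 7055 over the 5 times. Srf-null cells gave 7956, 6340, 5029, 8430 and 5323. Rescue cells gave 4012, 1344, 1099, 1560 and 2343. The rescue arrays again lay below all Srf-null arrays, and the rescue 0 min array was the highest of its line. From 10 min on, rescue cells were also below every wild-type array, which was true of 2.59% of the probe sets tested. The geometric means over 5 times were 6475 in Srf-null, 4249 in wild-type and 1850 in rescue cells, with log2 SDs of 0.33, 0.53 and 0.74. Over all 15 arrays the correlation of log2 values between both Bmp4 probe sets was 0.44, and 0.50 over 12 arrays. They shared the order of the lines but not the course over time.

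**Figure D1:**
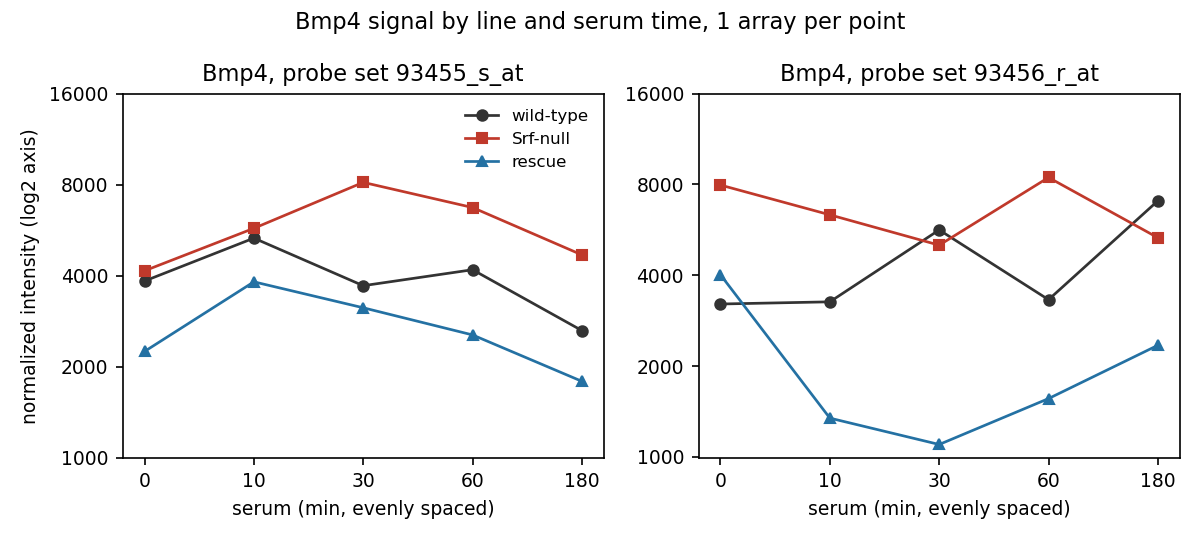
Normalized intensity of Bmp4 (vertical, log2 axis) against minutes of serum (horizontal, evenly spaced) for 93455_s_at on the left and 93456_r_at on the right; each point is 1 array and lines join the arrays of a cell line. Rescue cells run from 1790 to 3817 on the left and from 1099 to 4012 on the right, below all Srf-null arrays (4151 to 8136 and 5029 to 8430).

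Against Srf-null cells, the rescue line had less Bmp4 transcript by both probe sets in limma's test over all 15 arrays. The log2 difference was -1.13 ± 0.16 (SE, 5 arrays per line) for 93455_s_at with an adjusted p of 0.0114, and -1.81 ± 0.32 for 93456_r_at with an adjusted p of 0.0477. In that comparison 0.22% of the 9558 probe sets (21) were called at an adjusted p under 0.05, 0.105% were called lower, and 0.973% had all rescue arrays below all Srf-null arrays. Over the 12 arrays from 10 min on, the differences were -1.19 ± 0.16 (limma adjusted p = 0.0109) and -2.01 ± 0.29 (limma adjusted p = 0.0131), where 2.25% of probe sets were called and 4.46% had rescue below Srf-null on every array. In bulk RNA, fewer cells with the transcript and less of it per cell cannot be told apart.

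Neither of the other line pairs was called for Bmp4. Srf-null minus wild-type was 0.57 ± 0.16 (limma adjusted p = 0.32) and 0.61 ± 0.32 (limma adjusted p = 0.562) over 15 arrays, and 0.69 ± 0.16 and 0.43 ± 0.29 over 12 arrays (limma adjusted p = 0.16 and 0.585). Rescue minus wild-type was -0.55 ± 0.16 (limma adjusted p = 0.39) and -1.20 ± 0.32 (limma adjusted p = 0.316) over 15 arrays, and -0.50 ± 0.16 and -1.58 ± 0.29 over 12 arrays (limma adjusted p = 0.337 and 0.0827). In limma's test over 15 arrays 0% of probe sets were called for either pair, with 916 and 693 at an unadjusted p under 0.05. Over 12 arrays 0.324% and 0.398% were called. Wild-type cells thus held the middle place in both orders without a called difference to either neighbour.

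The Bmp4 calls depended on single arrays and on the scaling. For 93455_s_at it was lost without Srf-null 30 or 60 min or without rescue 30, 60 or 180 min, at -1.03 to -1.13 with limma adjusted p from 0.0567 to 0.079. For 93456_r_at it was lost without wild-type 10, 60 or 180 min, Srf-null 0, 10, 30 or 60 min, or rescue 10, 30, 60 or 180 min, at -1.61 to -1.86 with limma adjusted p from 0.0504 to 0.22, and the values as deposited gave -0.78 and -1.46 with limma adjusted p of 0.826 and 0.243. With the actin control ratio as a term the differences were -1.06 (limma adjusted p = 0.055) and -1.68 (limma adjusted p = 0.109). The 11 fibroblast feeder markers, mostly through Fn1 and Sparc, summed to 12490 to 13955 on rescue arrays, 8924 to 12775 on Srf-null arrays and 8570 to 13484 on wild-type arrays, with Col1a2 above the floor on 0 arrays, and their part in the Bmp4 difference was not tested.

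Id1, Id2 and Id3 were low at 10 and 30 min of serum in every line, were higher at 60 min and were at their highest from 10 min on at 180 min, in Srf-null cells as in the others. Id1 gave 9471, 2317, 3041, 4716 and 9744 in wild-type cells at 0, 10, 30, 60 and 180 min. Srf-null cells gave 429, 1108, 1155, 6141 and 9852, and rescue cells gave 7495, 634, 647, 2735 and 7462. The 3 lines ranged over 634 to 2317 at 10 min and over 7462 to 9852 at 180 min, so they lay closer together at the end than at 10 min. At 0 min the wild-type and rescue arrays were as high as at 180 min, while the Srf-null array was the lowest of all 15.

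Id2 followed the same course. Wild-type cells gave 2216, 973, 1251, 1604 and 5721 over the 5 times. Srf-null cells gave 526, 637, 692, 1624 and 5026. Rescue cells gave 10526, 725, 551, 1939 and 3787. The 60 min values of the 3 lines lay within 1604 to 1939, and the rescue 0 min array gave the highest Id2 value of all arrays.

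Id3 gave 1714, 449, 761, 1466 and 4621 in wild-type cells over the 5 times. Srf-null cells gave 228, 381, 398, 1453 and 2996. Rescue cells gave 5353, 881, 706, 2009 and 4581. As for Id2, the rescue 0 min array held the highest value and the Srf-null 0 min array the lowest. From 10 min on, the Srf-null arrays were below the other lines at each time. In rescue cells the 30 min value lay below the 10 min value, unlike in the other lines.

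**Figure D2:**
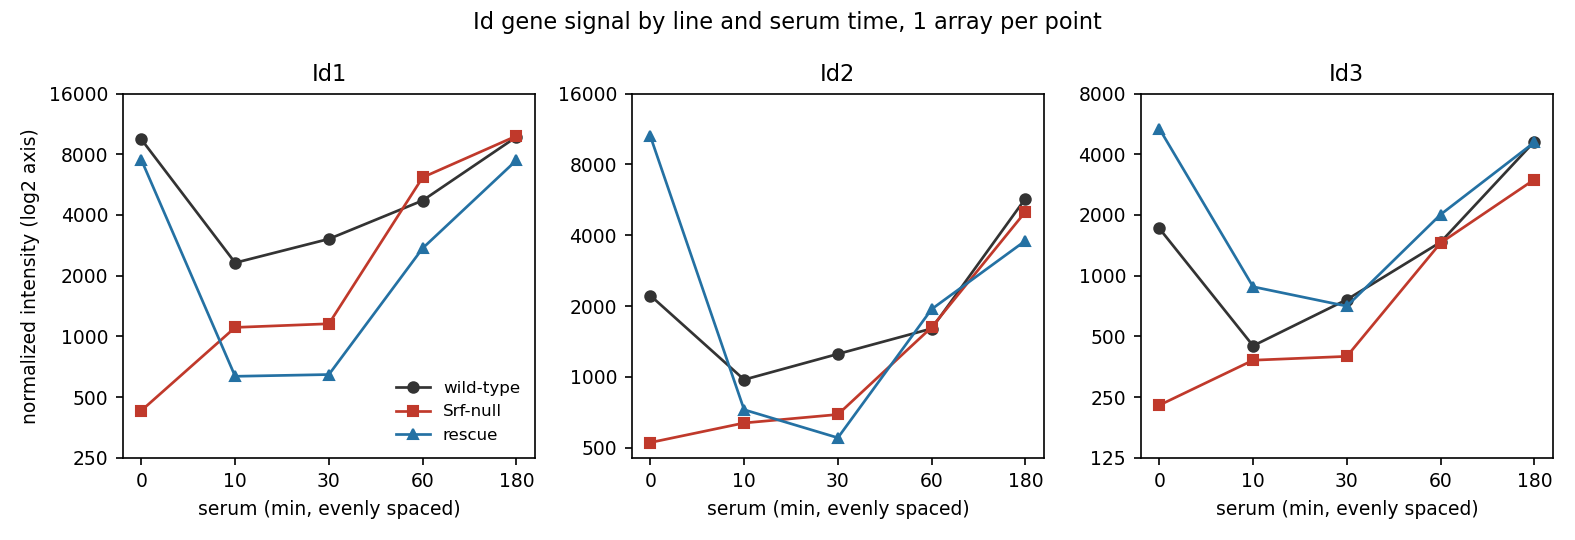
Normalized intensity of Id1, Id2 and Id3 (vertical, log2 axis with its own range in each panel) against minutes of serum (evenly spaced); each point is 1 array and lines join the arrays of a cell line. From 10 to 180 min all 9 courses end well above their start, while at 0 min wild-type and rescue cells are high and Srf-null cells low (Id1: 9471, 7495 and 429).

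From 10 to 180 min, Id1 was 4.2-fold higher in wild-type, 8.9-fold in Srf-null and 11.8-fold in rescue cells. Id2 was 5.88-fold, 7.89-fold and 5.23-fold higher, and Id3 10.3-fold, 7.87-fold and 5.2-fold higher, in the same order of lines. On these single arrays 12.6% of probe sets in wild-type, 7.43% in Srf-null and 8.93% in rescue cells were at least 2-fold higher at 180 than at 10 min, and 0.398% (38) in all 3 lines, among them Id1, Id2 and Id3. Ranked by the mean log2 rise of the 3 lines among the 9558 probe sets, Id1 took rank 7, Id3 rank 8 and Id2 rank 15, and the Bmp4 probe sets took ranks 9094 and 950.

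The size of the steps between times differed from line to line. From 10 to 30 min, the log2 steps of the Id genes ran from -0.40 (Id2 in rescue cells) to 0.76 (Id3 in wild-type cells). From 30 to 60 min, Id1 stepped up by 2.41 in Srf-null and 2.08 in rescue cells but by 0.63 in wild-type cells. Id2 stepped by 1.23, 1.82 and 0.36 in Srf-null, rescue and wild-type cells over that interval, and Id3 by 1.87, 1.51 and 0.95. From 60 to 180 min, the wild-type steps were 1.05 for Id1, 1.83 for Id2 and 1.66 for Id3, each larger than its own step before. With 1 array for each line and time, these differences of timing have no replicate check.

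Averaged over the lines, all 3 Id genes rose between 10 and 180 min. In limma's additive model of line and time over 12 arrays, a comparison added after the values had been seen, the log2 rise was 2.93 ± 0.36 for Id1 (SE, 3 lines; limma adjusted p = 0.0309), 2.64 ± 0.25 for Id2 (limma adjusted p = 0.00557) and 2.91 ± 0.23 for Id3 (limma adjusted p = 0.00516). In that comparison 0.188% of probe sets (18) were called, and 0.167% (16) were called higher. At 60 min against 10 min the log2 differences were 1.87 ± 0.36, 1.16 ± 0.25 and 1.61 ± 0.23 for Id1, Id2 and Id3 (limma adjusted p = 0.514, 0.718 and 0.211), higher in 3 of 3 lines for each gene. At 30 min against 10 min they were 0.16 ± 0.36, 0.03 ± 0.25 and 0.17 ± 0.23 (limma adjusted p of 1 for all 3). At both of these times 0% of probe sets were called by limma, with 416 and 202 at an unadjusted p under 0.05.

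The call at 180 min depended on single arrays for Id1 more than for Id3. Leaving out wild-type 180 min gave Id3 a limma adjusted p of 0.0696 (2.79), and no other single array ended its call; for Id2 leaving out wild-type 10 or 180 min, Srf-null 10 min, or rescue 10 or 180 min ended it (2.54 to 2.74, limma adjusted p from 0.0512 to 0.0755), and for Id1 every array but wild-type 30 and 60 min did (2.63 to 3.25, limma adjusted p from 0.0553 to 0.186). With the values as deposited the rises were 2.52, 2.14 and 2.36, and 0 of the 3 were called (limma adjusted p = 0.505, 0.802 and 0.578). The actin control ratio was higher at 180 than at 10 min in each line (0.847 to 2.11 in wild-type, 1.79 to 1.94 in Srf-null, 0.989 to 1.42 in rescue cells), and with it as a term the rises were 2.78, 2.62 and 2.67 (limma adjusted p = 0.147, 0.0393 and 0.0198). The 18S control signal was low at 10 and high at 180 min in wild-type and rescue cells and the opposite in Srf-null cells, and with it as a term the rises were 2.82, 2.63 and 2.84, all 3 called.

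Tests that joined 0 and 10 min into a baseline called 0 of the 3 Id genes by limma, although all 3 had an unadjusted p under 0.05 for the late response. Over 15 arrays the late response (180 min minus baseline, mean of the lines) was 2.22 ± 0.91 for Id1, 1.85 ± 0.78 for Id2 and 2.27 ± 0.72 for Id3, with limma adjusted p of 1, 1 and 0.823, where 0.0523% of probe sets were called. The early response (30 and 60 min minus baseline) was 0.31 ± 0.74, -0.20 ± 0.64 and 0.26 ± 0.59 (limma adjusted p of 0.995 for each), where limma called 0% of probe sets and 243 had an unadjusted p under 0.05. In these tests the baseline spans wild-type and rescue 0 min, where the Id genes were high, and Srf-null 0 min, where they were lowest. Without the 0 min arrays, baseline and late phase hold 1 array per line. The spread in that fit then comes only from the differences between 30 and 60 min, when the Id genes themselves stepped up. It does not measure the spread at 10 or 180 min, so that fit cannot decide whether the rise exceeds it. With 10 min alone as the baseline, the late response was 2.93 ± 0.93, 2.64 ± 0.64 and 2.91 ± 0.74 (limma adjusted p = 0.363, 0.255 and 0.282), and 1.74% of probe sets were called.

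Bmp4 itself showed no called serum change. Between 10 and 180 min 93455_s_at differed by -1.01 in wild-type, -0.29 in Srf-null and -1.09 in rescue cells on the log2 scale, lower in 3 of 3 lines, with a mean of -0.80 ± 0.19 (limma adjusted p = 0.356). Probe set 93456_r_at differed by 1.11, -0.25 and 0.80, with a mean of 0.55 ± 0.34 (limma adjusted p = 0.78). The probe sets thus differed in sign in wild-type and rescue cells. The late response over 15 arrays was -0.52 ± 0.22 and 0.24 ± 0.35 (limma adjusted p of 1 for both).

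Whether the rise of the targets followed the level of the ligand over the lines turned on the time taken as baseline. From 10 to 180 min the geometric mean of Bmp4 was 6191 in Srf-null, 3840 in wild-type and 2718 in rescue cells by 93455_s_at, and 6150, 4558 and 1525 by 93456_r_at. With 10 min as baseline, the rise of Id1 to 180 min was largest in rescue cells, where Bmp4 was lowest (log2 3.56, against 3.15 in Srf-null and 2.07 in wild-type cells). The rise of Id2 followed the order of Bmp4 (2.98 in Srf-null, 2.56 in wild-type and 2.39 in rescue cells). The rise of Id3 was largest in wild-type cells (3.36, against 2.98 in Srf-null and 2.38 in rescue cells). With 0 min as baseline, Id2 and Id3 gave the order of Bmp4, while Id1 was largest in Srf-null cells and hardly differed between the other lines. The log2 difference to 180 min in Srf-null, wild-type and rescue cells was 4.52, 0.04 and -0.01 for Id1, 3.26, 1.37 and -1.48 for Id2, and 3.72, 1.43 and -0.23 for Id3. With 0 and 10 min joined, Id2 (3.12, 1.96 and 0.46) and Id3 (3.35, 2.40 and 1.08) had that order, and Id1 was largest in Srf-null cells too but smallest in wild-type cells (3.84, 1.06 and 1.78). The wild-type and rescue 0 min arrays, which stood apart from their lines, enter both of these baselines. So does the Srf-null 0 min array, the dimmest and the least correlated with any other array. With 3 lines there are 3 points, and neither a correlation nor a test was made of this relation.

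**Figure D3:**
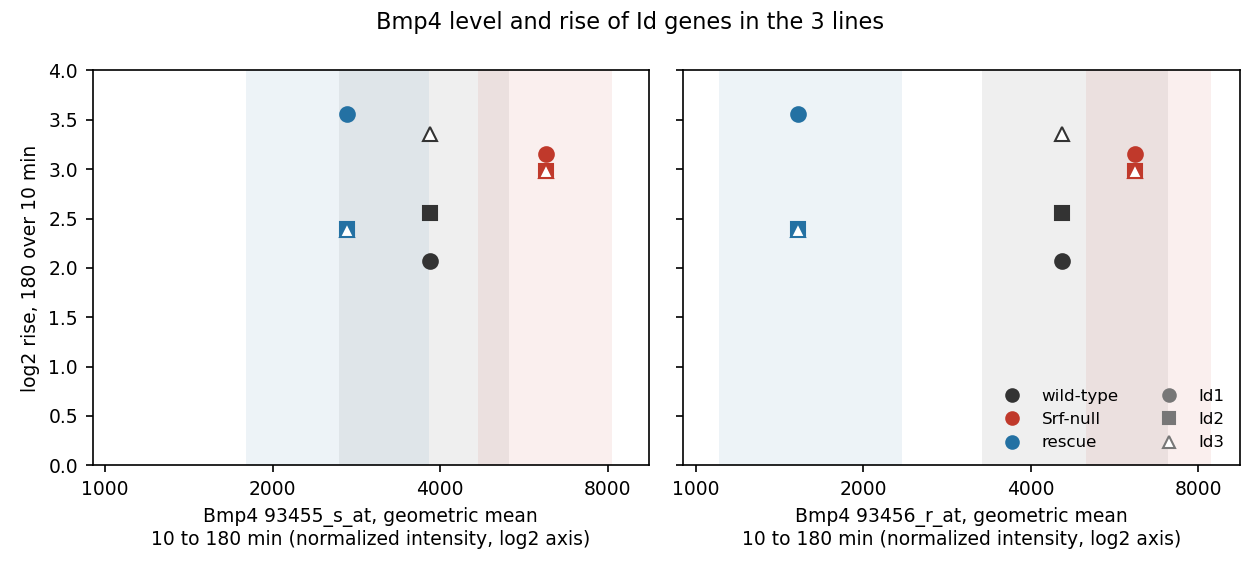
The log2 rise from 10 to 180 min of Id1 (circles), Id2 (squares) and Id3 (open triangles) in each line, against the geometric mean of Bmp4 from 10 to 180 min (log2 axis) by 93455_s_at on the left and 93456_r_at on the right; shading spans the lowest to the highest Bmp4 array of the line, and each rise is a difference of 2 arrays. From 10 min, Id1 is highest at the lowest Bmp4 level (3.56 in rescue cells), Id2 is highest at the highest level (2.98 in Srf-null cells) and Id3 in between (3.36 in wild-type cells); from 0 min, not drawn, all 3 are highest in Srf-null cells (4.52, 3.26 and 3.72).

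No difference of the Id response between lines was called. Over 15 arrays, the late response of Srf-null minus that of wild-type cells was 2.78 for Id1 (95% interval -2.23 to 7.79), 1.16 for Id2 (-3.16 to 5.48) and 0.95 for Id3 (-3.03 to 4.93). Rescue minus Srf-null was -2.06 (-7.07 to 2.95), -2.66 (-6.98 to 1.66) and -2.27 (-6.25 to 1.71). Rescue minus wild-type was 0.72 (-4.29 to 5.73), -1.51 (-5.83 to 2.81) and -1.32 (-5.30 to 2.66). In limma's test the smallest of these 9 adjusted p values was 0.83, and 0.0314%, 0.0105% and 0% of probe sets were called in the 3 comparisons, with 504 probe sets in the last at an unadjusted p under 0.05. The intervals span rises several times larger or smaller in 1 line than in another, so these arrays do not show that the lines respond alike.

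The levels of the Id genes over the whole course also gave no called difference between lines. Over the 12 arrays, Id1 differed by -0.52 ± 0.32 in Srf-null minus wild-type, -0.80 ± 0.32 in rescue minus Srf-null and -1.32 ± 0.32 in rescue minus wild-type cells (limma adjusted p = 0.544, 0.307 and 0.18). Id2 differed by -0.41 ± 0.21, -0.07 ± 0.21 and -0.48 ± 0.21 (limma adjusted p = 0.48, 0.927 and 0.514). Id3 differed by -0.45 ± 0.20, 0.78 ± 0.20 and 0.33 ± 0.20 (limma adjusted p = 0.425, 0.111 and 0.68). The largest Id1 value of these belongs to rescue against wild-type cells and the largest Id3 value to rescue against Srf-null cells, in opposite directions. Over 15 arrays the Id values ran from -1.31 (Id1, Srf-null minus wild-type) to 1.53 (Id3, rescue minus Srf-null), with limma adjusted p of 0.285 or more, and rescue minus Srf-null changed sign for Id1 (0.18) and Id2 (0.81).

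The Id genes resembled each other over the arrays more than they resembled Bmp4. Across 15 arrays, which share lines and times, Pearson's r of log2 values was 0.93 for Id2 with Id3, 0.88 for Id1 with Id2 and 0.83 for Id1 with Id3, and 0.92, 0.93 and 0.79 over 12 arrays. Among 8042 other named probe sets, Id3 was the most like Id2 and Id2 the most like Id3 over 15 arrays; over 12 arrays Id3 was 6th for Id2 and Id2 4th for Id3. Next to Id2 came Rassf1 (0.92), the noncoding RNA Epb41l4aos (0.92) and both probe sets of Taf1d (0.90 and 0.89), which encodes a factor of RNA polymerase I. Next to Id3 came Dusp1 (0.91), which encodes a phosphatase of MAP kinases and is induced by serum, Epb41l4aos (0.89), Nip7 (0.88) and Rassf1 (0.87). The probe sets most like Id1 were Epb41l4aos (0.90), the noncoding RNA host Snhg5 (0.90), Id2, the endoderm gene Gata4 (0.85) and Nip7 (0.85). Over 12 arrays these gave 0.90, 0.92, 0.93, 0.75 and 0.80. Gata4 was 1994 and 1450 on wild-type and rescue 0 min, beside a median of 651 over all arrays. Over 12 arrays the neighbours named for Id2 gave 0.88 to 0.95, and those for Id3 0.83 to 0.94.

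Bmp4 had other neighbours. By 93455_s_at its most similar probe sets were Rnf5 (0.87), Glo1 (0.85), Tcl1 (0.85), Csrp2 (0.85) and Golm1 (0.84), and the same probe sets gave 0.84 to 0.95 over 12 arrays. Tcl1 encodes a coactivator of Akt that ES cells express, and Rnf5 a ubiquitin ligase of the endoplasmic reticulum. Its r with Id1, Id2 and Id3 was -0.30, -0.55 and -0.66, and by 93456_r_at 0.25, 0.15 and -0.11. Over 15 arrays the sign of the relation therefore differed between the probe sets for Id1 and Id2. Over 12 arrays it differed for Id3 too (-0.68 and 0.03).

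Of 111 genes in 7 lists of the pathway, Bmp4 among them, 91 had a probe set and 69 passed the filter. Over 15 arrays, rescue against Srf-null cells called 1 of the 69, Bmp4 itself. Over 12 arrays it called 4, all lower in rescue cells: Bmp4, Tbx3, Klf4 and Tfcp2l1. Of all probe sets 2.25% were called in that comparison, and 1.08% were called lower. An unadjusted p under 0.05 in limma's test was reached by 14 of the 69 and by 1299 of all 9558 probe sets. The median of the 69 was -0.11 on the log2 scale, beside -0.01 over all probe sets. The other line pairs called 0 of 69 by limma, over 15 and over 12 arrays, with 4 to 9 genes at an unadjusted p under 0.05. At 60 and 180 min against 10 min limma also called 0 of 69, with 3 and 5 at an unadjusted p under 0.05.

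Among 14 ligands of the BMP and TGF-beta family that were tested, Bmp4 alone was called in rescue against Srf-null cells. Over 12 arrays, 5 of the 14 had an unadjusted p under 0.05 in limma's test, beside 1299 of all 9558 probe sets. The brightest others were Gdf3 (-0.27 ± 0.11), Nodal (-0.41 ± 0.16) and Lefty1 (-0.54 ± 0.22), ligands and an antagonist of the Nodal route, and the activin subunit gene Inhba (2.17 ± 0.74), with limma adjusted p of 0.224 or more over 12 arrays. Of 10 receptors and coreceptors 0 were called by limma, with 1 at an unadjusted p under 0.05, the coreceptor Eng (-0.72 ± 0.27, limma adjusted p = 0.287). Acvr2a and Acvr2b, type II receptors that also bind BMPs, differed by 0.15 ± 0.33 and 0.19 ± 0.19, and the Nodal coreceptor Tdgf1 by -0.44 ± 0.20. Of 7 extracellular inhibitors and modulators 0 were called by limma and 0 had an unadjusted p under 0.05, among them the antagonist Nog (0.35 ± 0.47), the BMP-binding proteins Twsg1 (-0.10 ± 0.37) and Fstl1 (-0.97 ± 0.43), and Bmp1, a protease that cleaves the BMP antagonist chordin (0.33 ± 0.31). The medians of ligands, receptors and inhibitors were -0.21, -0.27 and -0.09.

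Of 9 Smads and Smad regulators 0 were called by limma in rescue against Srf-null cells, with 2 at an unadjusted p under 0.05 and a median of -0.03. Smad3 and Smad5 had geometric means of 99 and 85 over 15 arrays, close to the floor. Smad1, which carries the BMP signal, differed by -0.03 ± 0.17, the Smad corepressor Ski by -0.11 ± 0.09, the phosphatase gene Ppm1a by 0.16 ± 0.21, and the inhibitory Smad7, itself a target, by -0.49 ± 0.18 (limma adjusted p = 0.251). Of 14 BMP and Smad targets other than Id1, Id2 and Id3, Tbx3 was called, at -1.32 ± 0.15 (limma adjusted p = 0.00475). Tbx3 encodes a T-box repressor that helps to hold ES cells undifferentiated. Nanog (-0.43 ± 0.23), Dusp9 (-0.28 ± 0.20) and Tgif1 (-0.23 ± 0.14) were not called. The targets Dlx3, Cdx2, Gata3, Hey1 and Gata2 had geometric means of 89 to 127 over 15 arrays, also close to the floor.

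In the LIF and Stat3 list, 2 of 10 genes were called lower in rescue than in Srf-null cells over 12 arrays, where 1.08% of all probe sets were. In limma's test 4 of the 10 had an unadjusted p under 0.05. Klf4, a pluripotency factor downstream of Stat3, differed by -0.73 ± 0.12 (limma adjusted p = 0.0225) and Tfcp2l1, another such factor, by -0.40 ± 0.08 (limma adjusted p = 0.0434). Of 7 E proteins and other partners of Id proteins 0 were called by limma, with 1 at an unadjusted p under 0.05, the E protein gene Tcf12 (1.41 ± 0.47, limma adjusted p = 0.213). Tcf3, the E2A gene, differed by -0.61 ± 0.38, and the bHLH genes Myod1 and Lyl1 by -0.24 ± 0.18 and -0.55 ± 0.27. Lyl1, Tcf4, Ascl2 and Twist1 had geometric means of 118, 87, 91 and 103 over 15 arrays, close to the floor.

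**Figure D4:**
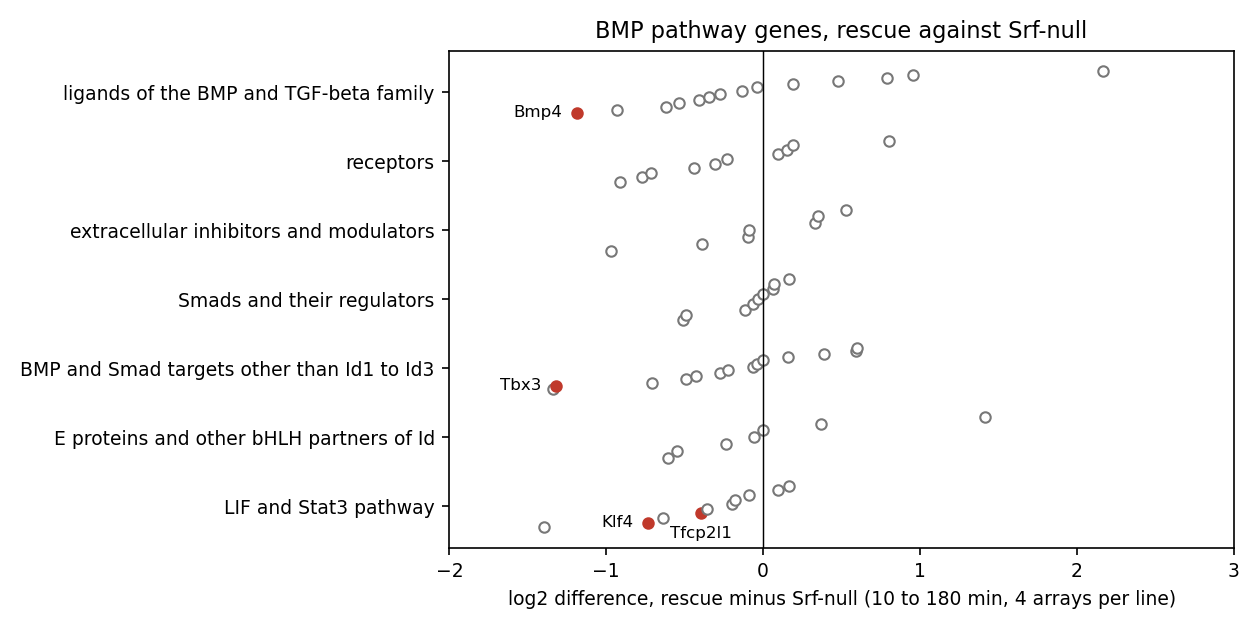
Log2 difference of rescue minus Srf-null cells (horizontal, 4 arrays per line from 10 min on) for each tested gene of the 7 lists (vertical); filled red points had a limma adjusted p under 0.05 and open points did not, and points are offset within a list only to keep them apart. The called genes are Bmp4 (-1.19), Tbx3 (-1.32), Klf4 (-0.73) and Tfcp2l1 (-0.40), and the open point farthest to the right is Inhba (2.17).

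None of the other listed targets was called in serum. At 180 against 10 min, 0 of the 14 other BMP and Smad targets were called by limma, with 1 at an unadjusted p under 0.05, and their median was 0.11 beside -0.01 over all probe sets. That gene was Tbx3 (0.58 ± 0.18, limma adjusted p = 0.631). Id4, the remaining member of the Id family, differed by 0.02 ± 0.58 and Smad7 by 0.33 ± 0.20. In the LIF and Stat3 list the nearest to the threshold was Socs3, a feedback inhibitor of cytokine receptors (0.87 ± 0.13, limma adjusted p = 0.072), with a median of 0.12 over the 10 genes. The medians of ligands, receptors, inhibitors, Smads and E proteins were -0.14, 0.06, 0.04, 0 and 0.02.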

How the data were processed

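Per the labels, total RNA of 3 mouse ES cell lines at 5 serum times was hybridised to 15 arrays. The deposited values are intensities on a linear scale, made by the authors from the scans; software, scaling and genome build: not given in the sources used here. They include negative values, so a background had been subtracted. Groups came from sample titles, and 0 columns stayed without a sample. The deposited intensities were quantile-normalized, set to a floor at the 40th percentile (84.98), taken to log2, and tested where above the floor on at least 2 arrays (9558 probe sets) by lmFit and trended eBayes of limma 3.58.1 (R 4.3.3), with Benjamini-Hochberg adjustment over all of them and a threshold of 0.05. Lines were compared in a model of line and time (8 residual degrees of freedom, 6 over 12 arrays), serum responses between phases (6, or 3 over 12 arrays). Intervals are 95% intervals of the fit. Symbols came from the platform annotation (10298 probe sets with 1 symbol, 363 with several, 1993 not listed), updated through gene identifiers for 10279; of several probe sets, the one with the highest mean stood for a listed gene. The members and lists were chosen with earlier results of these data known. Named genes were all members, called list members or, in lists with none called, the 4 with the highest signal, and the 5 most correlated named probe sets for each member; Other list genes with values (Gdf3, Nodal, Lefty1, Inhba, Nanog, Dusp9 and Tgif1 beside called members; Id4, Smad7, Socs3 and Tbx3 in serum) were named after values were seen. Comparisons with 10 min alone, the removal of 0 min arrays of wild-type and rescue cells, and the actin term were added after values were seen. The scripts were tested on simulated data. The number of arrays limits the precision.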

Additional observations from a re-analysis of the deposited data

How the results depend on the processing

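The lower Bmp4 level of rescue against Srf-null cells kept its direction under every alternative tried. For 93455_s_at the limma call was lost with the values as deposited (-0.78), the actin ratio as a term (-1.06) and line alone without time (-1.13, adjusted p = 0.08). For 93456_r_at it was lost with arrays scaled to a common trimmed mean (-1.89, adjusted p = 0.0569), the values as deposited (-1.46), no filter (-1.81, adjusted p = 0.133), no intensity trend (-1.81, adjusted p = 0.093), a term for each array's non-positive share (-1.72) and the actin ratio (-1.68). Leaving out 1 array gave -1.25 to -1.03 and -2.10 to -1.61. The count of member calls between lines, 2 over all arrays, was then 1 or 0: 1 with the trimmed-mean scaling, no filter, no trend, the non-positive share or line alone, 0 with the deposited values or the actin ratio, and 0 to 2 when 1 array was left out. The list count over line pairs and the late response, 1 over all arrays, was 5 without the 0 min arrays (Bmp4, Tbx3, Klf4, Tfcp2l1 and, for the late response, Bmp15 at 0.82 ± 0.04, limma adjusted p = 0.00823), also 5 over 13 arrays without wild-type and rescue 0 min, 0 with the deposited values or the actin ratio, and 0 to 3 when 1 array was left out. These counts of 0 are limma's. Bmp15 lay close to the floor, with a geometric mean of 106, and its late response over all arrays was 0.45 ± 0.40. In the fit without the 0 min arrays, baseline and late phase held 1 array per line. The spread in that fit comes only from the early arrays, so it cannot decide whether Bmp15 changed in serum.

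The rise of the Id genes from 10 to 180 min kept its direction throughout. With the values as deposited, which shift the median of all probe sets by -0.43 in this comparison, by 0.30 in rescue against Srf-null cells and by up to 1.51 in the late difference of Srf-null and wild-type cells, it was 2.52, 2.14 and 2.36 and none was called. Id1 also lost its call with no filter (2.93, adjusted p = 0.119), no trend (2.93, adjusted p = 0.0759), the non-positive share (2.93, adjusted p = 0.0731) and the actin ratio (2.78). Leaving out 1 array gave 2.63 to 3.25, 2.52 to 2.74 and 2.71 to 3.15 for Id1, Id2 and Id3.

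The differences that changed sign were all uncalled. Without the 0 min arrays, rescue minus Srf-null became -0.80 for Id1 and -0.07 for Id2, rescue minus wild-type -0.48 for Id2, the early response -0.17 and 0.14 for the Bmp4 probe sets and 0.60 for Id2, and the late difference 0.40 for Id1 (rescue minus Srf-null) and -0.39 for Id3 (Srf-null minus wild-type). Over 13 arrays these were -0.80, -0.07, -0.48, -0.09, 0.08 and 0.64, and -0.02 for Id3. With the non-positive share as a term, rescue minus wild-type was -0.24 for Id2, and the late differences were 0.45 for Id1 (rescue minus Srf-null) and -0.10, 0.48 and 0.37 for Id3 (Srf-null minus wild-type, rescue minus Srf-null, rescue minus wild-type). The early response was 0.07 for 93456_r_at with the deposited values, 0.06 for Id2 with the 18S term, -0.04, 0.02 and 0.32 for the Bmp4 probe sets and Id2 with the actin term, and 0.37 for Id2 with 60 min alone as early. The 60 min difference of 93456_r_at was -0.02 with the actin term. With 0 min alone as baseline, the early response was -0.39 for Id1 and -0.38 for Id3, the late response of 93456_r_at -0.07 and the late difference of rescue and wild-type cells -0.05 for Id1.

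Leaving out 1 array gave, for Id1, -0.70 to 0.56 (rescue minus Srf-null), -0.28 to 0.90 (early response) and -1.06 to 2.50 (late, rescue minus wild-type). For Id2 it gave -0.65 to 0.36 (rescue minus wild-type), -0.84 to 0.44 (early) and -3.44 to 0.42 (late, rescue minus wild-type), and for Id3 -0.18 to 0.69 (early) and -0.02 to 1.92 (late, Srf-null minus wild-type). For Bmp4 it gave -0.01 to 0.24 and -0.44 to 0.09 (early), and for 93456_r_at -0.02 to 0.50 (late response) and -0.08 to 0.53 (60 min). The causes of these changes were not tested. The labels carry no replicate numbers; the line model already pairs the lines by serum time, and the fit of line alone is its unpaired form.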
